A study of Mus musculus with 2 samples.

Results

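A splice junction joins the end of one exon, the donor site, to the start of a later exon, the acceptor site. The junctions described here were new combinations of known parts: both ends were annotated splice sites of the gene, but no annotated transcript of that gene joined them. They were taken from models of annotated genes in the class NIC, which the deposited tables give to reads that combine known splice sites in an unannotated way. Of 168287 introns read in models of annotated genes, 131210 were annotated and 4350 met this rule. Replicate 1 held 2760 of the 4350, replicate 2 held 2576, and 986 were read in both.

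The RNA came from gastrocnemius, the large fast muscle of the calf, of female mice of the F1 hybrid strain B6CASTF1/J aged 18 to 20 months. Full-length molecules were read as long reads in 2 libraries, replicates 1 and 2 of 1 group, each made from 2 µg of RNA with spike-in RNAs added. There was no second condition, so the libraries are compared only with each other. Both libraries carry the same donor record, and the labels do not say how many animals went into each. The p-values cover the counting error of reads alone, with 1 library per side. Some or all of any difference between the 2 libraries may be technical. Reads of annotated mouse genes numbered 1117891 in replicate 1 and 975696 in replicate 2. The 5 markers of muscle fibres summed to 292015 and 329377 counts per 1000000 reads (CPM), and the 4 of fibroblasts to 317 and 412. The 3 adipocyte markers summed to 78.7 and 47.1 CPM, the 3 of Schwann cells to 58.1 and 23.6, the 3 of endothelium to 49.2 and 32.8, the 3 of macrophages to 38.5 and 8.20 and the 2 of cardiac muscle to 0 and 5.12. The satellite cell marker Pax7, the macrophage marker Cd68 and the cardiac marker Nppa had 0 reads in both libraries, and 0 reads allow up to 2.68 and 3.07 CPM.

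Most vertebrate genes are spliced from many exons, and an exon that some transcripts include and others leave out is called a cassette exon. Skeletal muscle is known for a large program of such exons, which trims titin, nebulin, triadin, the ryanodine receptor and the troponins. A skip whose length is a multiple of 3 keeps the reading frame of the codons downstream. Very short exons, called microexons, are known to be used in muscle and brain, and a long read can miss them where few bases have to be placed between distant neighbours.

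The first sequences below belong to members that skip an exon of at most 7 bases and were held by most of their spanning reads. Each line runs 5′ to 3′ along the annotated transcript (GENCODE M21, mm10), with up to 20 coding bases of the neighbouring exons in lower case. Capitals mark the exon that the new junction leaves out.
Tnni2: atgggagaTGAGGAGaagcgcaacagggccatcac
Tnni1: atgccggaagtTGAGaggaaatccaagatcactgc
Mpc1: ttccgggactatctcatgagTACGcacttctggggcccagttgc
Ksr1: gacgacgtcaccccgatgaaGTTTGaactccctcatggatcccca
Map4k5: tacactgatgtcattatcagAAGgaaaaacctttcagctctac
In both troponins the skipped exon follows directly after the first coding bases. The junction of Tnni2, troponin I of fast fibres, lies on the plus strand at chr7:142442499-142443170, and that of Tnni1, the slow form, on the plus strand at chr1:135802624-135805052. The others lie at chr17:8283962-8296534 (plus strand, Mpc1), chr11:79040938-79044844 (minus strand, Ksr1) and chr12:69818499-69822802 (minus strand, Map4k5).

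The next sequences belong to longer exons, in genes of the contractile and transport machinery, whose new junction had a mean share of about 40% to 76%. They are shown to set exons that other reads included (Trdn, Clip1 and Neb) beside exons that 0 reads held as annotated (Ryr1 and Dctn1).
Ryr1: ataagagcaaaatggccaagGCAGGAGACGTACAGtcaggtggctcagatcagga
Dctn1: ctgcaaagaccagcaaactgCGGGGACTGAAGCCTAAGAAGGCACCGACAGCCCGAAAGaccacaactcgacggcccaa
Trdn: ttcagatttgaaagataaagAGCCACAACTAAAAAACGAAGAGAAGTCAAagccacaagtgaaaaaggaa
Clip1: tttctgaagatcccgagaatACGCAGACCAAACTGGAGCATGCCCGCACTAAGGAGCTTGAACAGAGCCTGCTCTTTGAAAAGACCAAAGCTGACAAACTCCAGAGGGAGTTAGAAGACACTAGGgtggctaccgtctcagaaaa
Neb: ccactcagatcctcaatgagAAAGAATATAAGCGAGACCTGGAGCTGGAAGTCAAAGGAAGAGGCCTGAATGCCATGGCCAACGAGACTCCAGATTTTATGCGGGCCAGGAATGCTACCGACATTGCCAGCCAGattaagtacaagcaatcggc
Their junctions lie at chr7:29055060-29056923 (Ryr1, minus strand), chr6:83183334-83187763 (Dctn1, plus strand), chr10:33399146-33437717 (Trdn, plus strand), chr5:123631170-123638955 (Clip1, minus strand) and chr2:52163010-52164591 (Neb, minus strand).

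Skips of exactly 1 exon made up most of the members. Exons were counted on the annotated model of the gene with most reads, here called the leading model. For 645 members, whose gene had no such model or whose leading model did not reach past both ends, they were counted on the merged exons of all annotated transcripts. By this count 2688 of 4350 (61.8%; 62.0% in replicate 1 and 61.6% in replicate 2) skipped 1 of them. Another 654 skipped 2, 240 skipped 3, 109 skipped 4, 40 skipped 5 and 125 skipped 6 or more. The remaining 494 (11.4%) passed over no exon entirely. Among the members counted on a leading model alone, 64.3% skipped 1 exon. Among 4211 annotated introns of the same genes that were read but do not belong to the leading model, 77.9% skipped no exon, 18.4% skipped 1 and 2.85% skipped 2. The new junctions mostly skipped an exon, whereas most of the annotated alternatives passed over none. In either set, an intron with both ends on the leading model has to skip an exon of it. The contrast is therefore partly set by how the 2 sets were chosen.

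**Figure D1:**
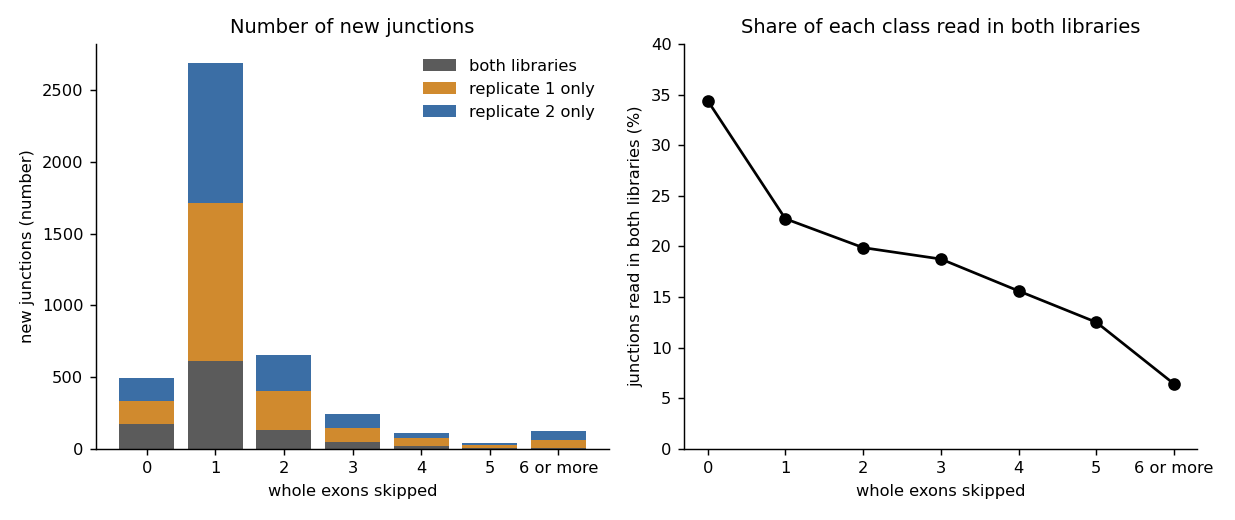
New junctions by the number of whole exons skipped on the leading annotated model. Left, number of junctions (bars split into those read in both libraries, in replicate 1 only and in replicate 2 only), with the 2688 skips of 1 exon highest; right, percent of each class read in both libraries, from 34.4% with no exon skipped to 6.40% with 6 or more.

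The fewer exons a junction skipped, the more often both libraries held it. Both libraries held 34.4% of those that skipped none, 22.7% of those that skipped 1, 19.9% for 2, 18.8% for 3, 15.6% for 4, 12.5% for 5 and 6.40% for 6 or more. The median share of spanning reads followed the same order, from 1.43% with no exon skipped to 0.980% for 1 and 0.303% for 6 or more. Read support also differed between the classes. The 494 that skipped none had 1670 and 1933 NIC reads in replicates 1 and 2, and the 125 that skipped 6 or more had 76 and 82. A junction with 1 read cannot be in both libraries, and the classes were not compared at equal reads. A spanning read is one whose model starts before the donor and ends after the acceptor, and the share is the percent of them that hold the junction, counted over models of every class.

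Most members rested on very few reads. A single read supported 2902 (66.7%), 1023 had 2 to 4, 222 had 5 to 9 and 203 had 10 or more. All 203 with 10 or more reads were in both libraries, as were 68.1% of the 1448 with at least 2. The most reads a junction had in one library with 0 in the other were 7 in replicate 1 and 8 in replicate 2. The 986 shared junctions were 35.7% of those in replicate 1 and 38.3% of those in replicate 2.

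Reads on models with at least one new junction were 10114 in replicate 1, or 0.905% of reads of annotated genes (Wilson 95% interval 0.887 to 0.922), and 8255 in replicate 2, or 0.846% (0.828 to 0.864), with a mean of 0.875 ± 0.0415% (SD, n = 2). All intervals here cover counting error only. Without the troponin gene Tnni2 the shares were 0.627% and 0.716%, so that the order of the libraries turned. Of the NIC models, 26.7% of 11862 in replicate 1 and 26.2% of 11396 in replicate 2 held a new junction. One model held at most 3 in replicate 1 and at most 4 in replicate 2.

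The members lay in 2771 genes, of which 1854 had 1 and 58 had 5 or more, and 98.0% were in protein-coding genes. Genes with more reads had more of them. A member was found in 6.91% of genes with 1 to 9 reads and at least 3 annotated exons, in 25.5% of those with 10 to 99, in 44.4% with 100 to 999, in 64.2% with 1000 to 9999 and in 13 of 15 genes with at least 10000. The median share ran the other way, from 2.00% in genes with 10 to 99 reads to 0.746%, 0.0974% and 0.00417% in the deeper classes. A share from 1 read is lower the more reads span it, and most members had 1 read, so depth partly sets this order. None of the 87 members tested in the deepest class reached a share of 10%.

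For shares, 20 spanning reads were required in each library, which 2572 of the 4350 members had. Their median share was 0.936% (0.658% in replicate 1, 0.528% in replicate 2 and 0.476% with 50 spanning reads required), against 99.5% for 39700 annotated introns under the same requirement. A share of 1% or less was found for 52.5% of these members and for 2.68% of the annotated introns. At the other end, 118 members in 102 genes reached 10%, 23 reached 50% and 10 reached 90%. All 118 were held in both libraries, and their shares differed between the libraries by a median of 5.79 percentage points.

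**Figure D2:**
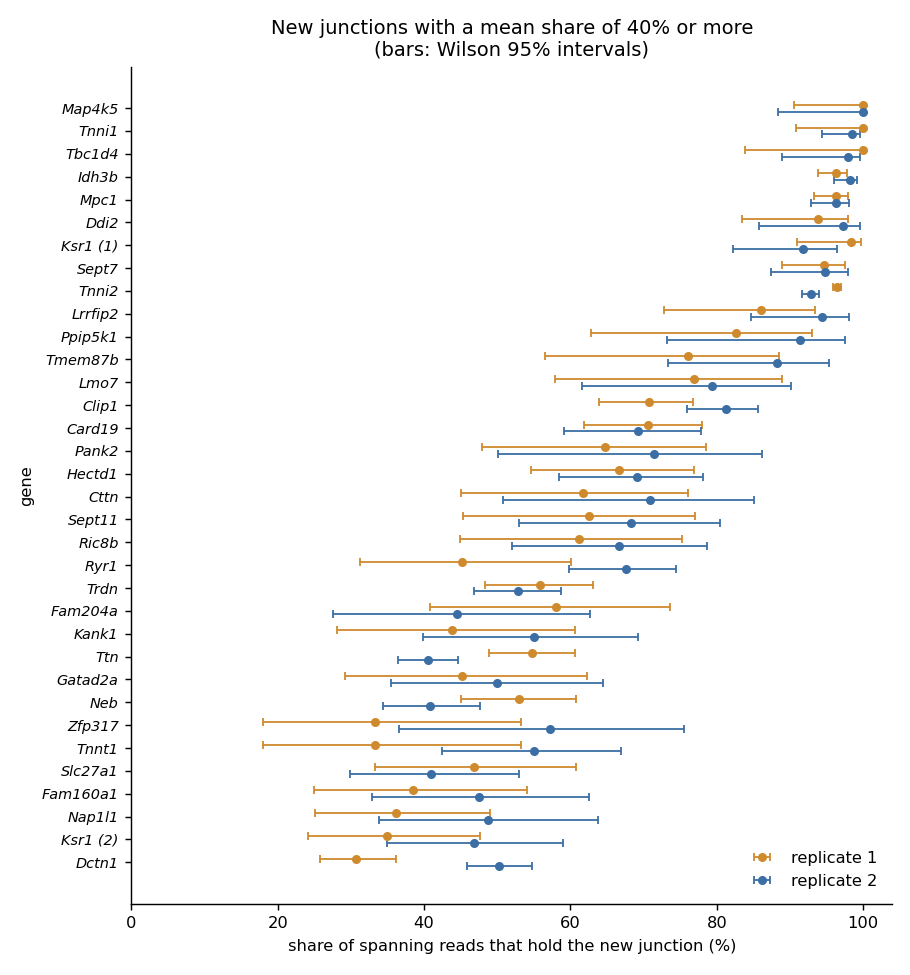
Share of spanning reads that hold the new junction (x axis, %) for the 34 new junctions with a mean share of 40% or more, 1 row per junction and 1 point per library with its Wilson 95% interval; a number in brackets tells apart junctions of 1 gene. The upper rows, down to Lrrfip2, sit at 86.0% or more in each library, and the bars of the 2 libraries do not overlap for Dctn1, Ttn and Tnni2.

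Skips of very short exons held 32.4% of all reads of the members, while most of the exons themselves were never read. In 85 members every skipped exon had at most 27 bases, and these held 6075 of 18755 member reads (32.4%), of which Tnni2 alone gave 4372 NIC reads (3106 and 1266). Without Tnni2 the other 84 held 9.08%. Skips of 1 exon of at most 9 bases numbered 21, with 13 in both libraries and a median share of 60.9% over the 12 with enough spanning reads. No spanning read of either library held any of these 21 exons.

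Tnni2 encodes the inhibitory subunit of troponin in fast fibres. Its junction leaves out an exon of 7 bases and was held by 4267 of 4425 spanning reads in replicate 1 (96.4%, 95.8 to 96.9) and 1823 of 1962 in replicate 2 (92.9%, 91.7 to 94.0). The annotated exon of 7 bases was in none of them. An unannotated junction whose donor lay 4 bases further downstream was held by another 144 and 94 reads. The slow form Tnni1 had the same arrangement: 38 of 38 spanning reads in replicate 1 and 124 of 126 in replicate 2 passed over an exon of 4 bases, and 0 held it.

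Mpc1, a subunit of the mitochondrial pyruvate carrier, came second to Tnni2 in NIC reads among the skips of such short exons. Its junction was in 260 of 270 spanning reads in replicate 1 and 208 of 216 in replicate 2, 96.3% in both. On the annotated transcript with both of its ends it skipped 4 bases, and on the leading model it skipped an exon of 81 bases. Sept7, a septin, passed over 5 bases in 107 of 113 and 73 of 77 reads. Ksr1, a scaffold of the MAP kinase cascade, passed over 5 bases in 58 of 59 and 56 of 61, and the kinase Map4k5 passed over 3 bases in 37 of 37 and 29 of 29. For these 4 genes, as for the troponins, the annotated short exon was in 0 reads and the libraries overlapped within their intervals, except for Tnni2. All of these short exons lie in the coding part of the annotated transcript used. Only the 3 bases of Map4k5 are a multiple of 3. Leaving out the 7 bases of Tnni2, 4 of Tnni1 and Mpc1, or 5 of Sept7 and Ksr1 would shift the reading frame of that transcript.

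Not every short skip was held by most of its spanning reads. Psap, the precursor of the saposins and a gene named here after its values were seen, passed over 5 bases in 48 of 195 and 25 of 84 spanning reads. Hnrnpk, an RNA-binding protein, passed over 16 bases at chr13:58393775-58394075 (minus strand) in 8 of 218 (3.67%) and 5 of 159 (3.14%). There, 208 and 151 reads held an unannotated junction instead, with the same acceptor and a donor 16 bases further on, which is the length of the exon that 0 reads held.
Hnrnpk: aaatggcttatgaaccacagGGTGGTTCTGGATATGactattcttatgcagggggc
Capitals again mark the skipped exon. In the calcium pump gene Atp2a1, the exon passed over had 18 bases, and 40 of 163188 and 45 of 181822 spanning reads held the new junction. An unannotated junction 26 bases away held 162057 and 180352 of the rest. Whether reads of short exons were placed at a neighbouring boundary by the alignment was not tested.

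The link to length held beyond the members. Among all annotated internal exons of up to 60 bases with 20 spanning reads in each library, 0 of 45 of at most 9 bases were in any spanning read, 1 of 28 of 10 to 12 bases, 4 of 35 of 13 to 15 and 9 of 37 of 16 to 18. For 19 to 21 bases, 34 of 64 were read, with a median inclusion of 0.230%. The median inclusion was 47.5% for 22 to 24 bases (75 exons), 90.1% for 25 to 27 (89), 98.1% for 28 to 30 (106) and 99.5% for 51 to 60 (1556). An exon counted as included only where a model held both of its boundaries exactly. The shares above for exons of a few bases therefore come from a length range in which no annotated exon was held by a spanning read.

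**Figure D3:**
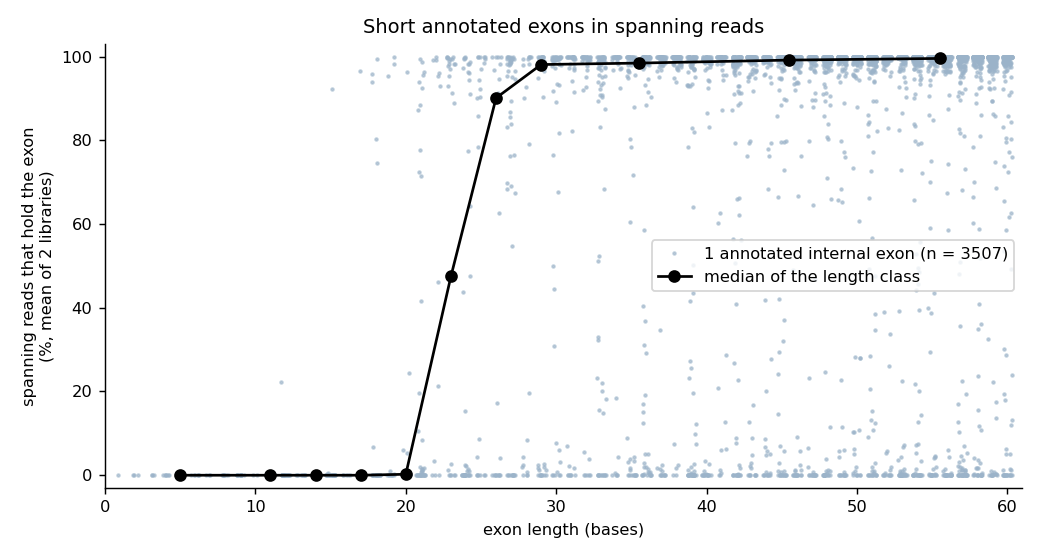
Percent of spanning reads that hold an annotated internal exon (y axis, mean of the 2 libraries) against its length in bases (x axis), for 3507 exons of up to 60 bases. Grey points are single exons with a small sideways shift for sight, black points the medians of length classes, which stay at or near 0 up to 21 bases and reach 98.1% at 28 to 30 bases.

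Outside the shortest exons, high shares were found at several exons of sarcomere and triad genes. Ttn encodes titin, the spring that runs from the Z-disc to the M-line, and its junction at chr2:76705330-76706439 (minus strand) joins exon 345 to exon 347, the last, past an exon of 303 bases at the M-line end. It was held by 148 of 270 spanning reads in replicate 1 (54.8%, 48.9 to 60.6) and 221 of 546 in replicate 2 (40.5%, 36.4 to 44.6). The exon was included in 119 and 324 reads. Over Known, NIC and NNC models alone the mean share was 92.9%, against 47.6% over models of every class. Only this one of 12 titin members had enough spanning reads.

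Neb encodes nebulin, which runs along the thin filament. Exon 140 of 157, with 114 bases, was passed over in 80 of 151 spanning reads in replicate 1 (53.0%, 45.0 to 60.8) and 85 of 208 in replicate 2 (40.9%, 34.4 to 47.7), and 71 and 122 reads included it. A pair of longer Neb junctions lay further downstream, in a stretch of exons of 93 bases each. The one at chr2:52149698-52159476 was in 24 of 181 and 25 of 230 reads, and the one at chr2:52150630-52159476 in 5 of 181 and 6 of 230. They passed over 8 and 7 merged exons of all annotated transcripts, but over 1 exon and 5 exons of 93 bases on the annotated transcript with both ends. Over Known, NIC and NNC models alone, the mean share of the second was 4.27%, against 2.69% over every class.

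Trdn encodes triadin, which anchors the calcium store protein to the release channel. Exon 24 of 38, with 30 bases, was passed over in 95 of 170 (55.9%) and 141 of 267 (52.8%) spanning reads and included in 73 and 123. The intervals of the libraries overlapped (48.4 to 63.1 and 46.8 to 58.7). All 15 Trdn members lay in the coding part, and all 15 kept the frame.

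Ryr1 encodes the calcium release channel, and the 15 bases passed over are known as an alternatively spliced segment. The new junction was in 19 of 42 spanning reads in replicate 1 (45.2%, 31.2 to 60.1) and in 104 of 154 in replicate 2 (67.5%, 59.8 to 74.4). The exon was in 0 reads as annotated, and 21 and 48 reads held an unannotated junction with the donor 17 bases further on. Of annotated exons of 13 to 15 bases, 4 of 35 were in any spanning read, so the limit of short exons applies here too.

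Other members with high shares were in genes outside the sarcomere. Clip1, a protein at the growing ends of microtubules, left out exon 9 of 25 (105 bases) in 133 of 188 (70.7%) and 200 of 246 (81.3%) reads, while 42 and 31 included it. That exon was counted on the annotated transcript with both ends. On the leading model the Clip1 junction skips no whole exon, and another annotated intron of the gene already passes over that exon. Dctn1 encodes the large subunit of dynactin, the partner of the dynein motor, and 2 exons of 21 and 18 bases in its basic stretch were passed over in 93 of 303 and 247 of 491. No read held those 2 exons, the leading model has none there, and 206 and 234 reads held an annotated junction from the same donor to an acceptor 1313 bases further on. Of annotated exons of 16 to 18 bases, 9 of 37 were read, and those of 19 to 21 had a median inclusion of 0.230%. Card19, which carries a caspase recruitment domain, left out 60 bases in 84 of 119 and 63 of 91, and Ddi2, a retroviral-like protease, left out the exon before its last in 46 of 49 and 35 of 36. On the annotated transcript with both ends, that exon of Ddi2 (62 bases) lies in the 5′ UTR and not in the coding part. Tbc1d4, a regulator of glucose uptake, passed over 24 bases in 20 of 20 and 46 of 47.

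Idh3b, a subunit of isocitrate dehydrogenase of the citric acid cycle, had the highest share among members with over 300 reads in each library. Its junction at chr2:130279438-130280262 (minus strand) was in 362 of 376 (96.3%, 93.8 to 97.8) and 322 of 328 spanning reads (98.2%, 96.1 to 99.2). On the annotated transcript with both ends it passes over 171 bases that hold the stop codon. On the leading model it skips no whole exon.

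Idh3b was one of 494 members that skip no whole exon by this count, of which 30 were counted on merged exons. In 192 only the donor lay on the leading model, in 151 only the acceptor and in 151 neither. On another annotated transcript with both ends, 141 of the 494 did skip an exon. Some of the others were small shifts beside an annotated junction. Srl encodes sarcalumenin, a calcium binding protein of the sarcoplasmic reticulum, and its junction moved the acceptor by 3 bases, in 89 of 2186 (4.07%) and 185 of 3478 (5.32%) spanning reads. Map7d1, a microtubule protein, moved the donor by 9 bases in 57 of 348 and 101 of 592. Eno3, the enolase of muscle, moved the donor by 12 bases in 61 of 7132 (0.855%) and 46 of 5906 (0.779%). Counted only over reads that share an end of the intron, the mean share was 9.47% for Srl (4.70% over all spanning reads) and 2.33% for Eno3 (0.817%). These 3 shifts are all multiples of 3. Lrrfip2 joined sites that no annotated transcript shares, in 37 of 43 and 50 of 53 reads.

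Both ends lay on one annotated transcript for 3897 members, and for 453 (10.4%) they did not. By position on that transcript, 3239 junctions (74.5%) were inside the coding part, 306 passed over the start codon, 143 were in the 5′ UTR, 45 passed over the stop codon, 23 were in the 3′ UTR, 7 took out the whole coding part and 134 were on non-coding transcripts. Junctions in the 5′ UTR were in both libraries in 37.8% of cases and those in the coding part in 20.8%. The 2994 single skips on such transcripts had a median of 112 bases, against 119 for 39262 annotated internal exons of the same genes. An exon that another annotated intron of the gene already passes over was the target in 19.3% of them, and 18.1% of the annotated internal exons are of that kind. Such known cassette exons were read as new skips in both libraries in 32.8% of cases, and other exons in 21.6%.

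Skips in the coding part kept the reading frame in a larger share than that of coding exons with such lengths. Of 3239, 1742 (53.8%, 52.1 to 55.5) had a length that is a multiple of 3. Among single skips it was 52.1% (50.1 to 54.0) of 2470, while 41.5% of 29396 annotated internal coding exons of the same genes have such a length. Weighted by the genes of the single skips, that share was 41.2%. Among skips of 2 exons it was 58.6% of 449, against 42.6% of pairs of neighbouring coding exons. The libraries gave 54.7% and 54.4%.

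The share that kept the frame was higher with more support. It was 52.1% with 1 read (2234 skips), 55.7% with 2 to 4 (736) and 62.8% (56.9 to 68.4) with 5 or more (269). By share of spanning reads it was 54.3% up to 1%, 52.9% between 1% and 10%, and 70.3% (59.1 to 79.5) at 10% or more, where 52 of 74 kept it. The genes of those 74 have 49.0% of coding exons with such lengths. Without skips of exons of at most 27 bases, 48 of 63 (76.2%) kept it.

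**Figure D4:**
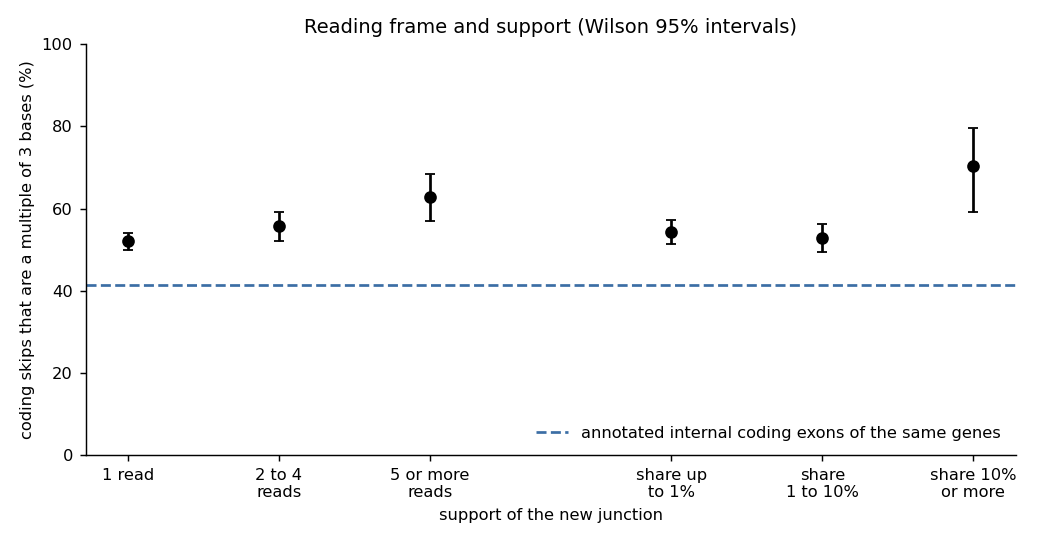
Percent of coding skips whose length is a multiple of 3 bases (y axis) by reads (left) and by share of spanning reads (right), with Wilson 95% intervals; the dashed line is the 41.5% of annotated internal coding exons of the same genes. All 6 points lie above the line, and the highest are 62.8% at 5 or more reads and 70.3% at a share of 10% or more.

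Shared sequence at the joined edges was measured for single skips and for neighbouring annotated exons. The longest run of identical bases at the joined edges of the spliced RNA had a median of 2 over 2991 single skips, and of 2 over 51220 annotated sets of 3 exons in the same genes. Runs of 5 or more bases were found for 4.41% and 4.08%, and for 6.23% of the 305 skips with 5 or more reads. Runs of 10 or more were found for 0.334% of the skips, 1.31% of those with 5 or more reads and 0.178% of the annotated sets. Among the longer runs were 24 bases for a skip in Neb and 22 for one in Trdn.

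Few members were called different between the libraries. Shares were compared intron by intron with a 2-sided Fisher's exact test over 42272 introns, annotated and new, with Benjamini-Hochberg adjustment and a threshold of 0.05, which called 0.26% of all introns (0.097% with the larger share in replicate 1 and 0.163% in replicate 2). Of 2572 members, 2 were called, and 30 (1.17%) had an unadjusted p under 0.05, against 1.91% of annotated introns. No read held the junction in replicate 1 for 890 of the members, and in replicate 2 for 954. With so few reads the test could hardly call a difference, so few calls do not show that shares were equal. Dctn1 was held by 93 of 303 spanning reads in replicate 1 (30.7%, 25.8 to 36.1) and 247 of 491 in replicate 2 (50.3%, 45.9 to 54.7), with an adjusted p of 5.13e-05 in Fisher's exact test. Tnni2 was at 96.4% and 92.9%, with an adjusted p of 3.09e-06. The Tnni2 call ended when spanning reads were limited to Known, NIC and NNC models, where the shares differed by 1.08 percentage points (adjusted p of 1), or to reads that share an end of the intron (1.61 points, adjusted p of 1).

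**Figure D5:**
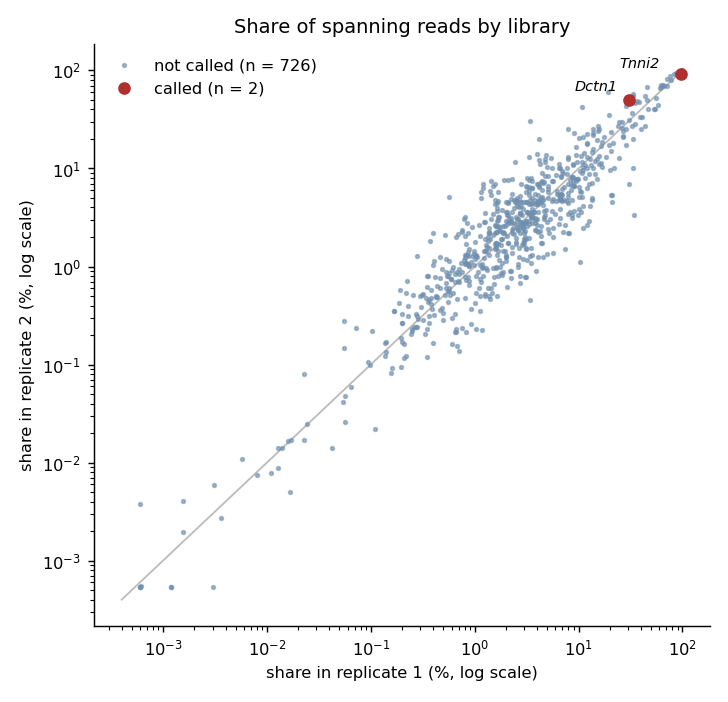
Share of spanning reads in replicate 1 (x axis, %, log scale) and replicate 2 (y axis, %, log scale) for the 728 new junctions with 20 spanning reads in each library and reads in both. The line marks equal shares, and the 2 red points are Dctn1 and Tnni2, called by Fisher's exact test.

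Other members had the next smallest p-values and did not pass. Ttn missed the threshold narrowly, with an adjusted p of 0.051 in Fisher's exact test for 54.8% against 40.5%, and passed where 50 spanning reads were required (adjusted p of 0.0262). Over Known, NIC and NNC models alone the Ttn difference was -0.416 percentage points (adjusted p of 1). The non-coding gene Gm15179 was at 18 of 53 and 1 of 30 (adjusted p of 0.244), Park7, a protein linked to Parkinson disease, at 25 of 647 and 4 of 445 (0.419), and Pdlim3, a Z-disc protein, at 22 of 683 and 21 of 265 (0.548). Cep63, a centrosome protein, was at 4 of 21 and 12 of 20, and the palmitoyltransferase gene Zdhhc4 at 4 of 37 and 9 of 21, each with an adjusted p of 1.

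Lists of genes set the members in the context of muscle. The median share over all tested members was 0.936%. Medians of the lists were not compared at equal depth, and a share from few reads is lower in deeper genes. Of 29 giant and scaffold proteins of the sarcomere, 20 genes had 76 members, 25 of them in both libraries, with a median share of 0.0657% and 51 of 69 coding skips in frame. Of 29 genes of calcium handling, 19 had 72 members, 28 in both, with a median of 0.161% and 54 of 68 in frame. Of 22 genes of the filaments and their regulators, 14 had 61 members, 11 in both, with a median of 0.00601% and 26 of 45 in frame. Over the genes of all members, 41.5% of annotated internal coding exons have a length that is a multiple of 3. That share was not counted for each list, so the counts in frame have no such value beside them. Of the members in these lists, Tnni2 was called between libraries, and no other.

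In the other lists, medians were also below that of all tested members, except among splicing factors. The lists differed in depth, from 2901 and 2130 reads (replicates 1 and 2) for splicing factors to 175793 and 146302 for the filament list. Of 28 genes of glycolysis and glycogen, 18 had 71 members, 16 in both, with a median of 0.121% and none at 10%. After that of Eno3, the single junction with most reads was in Phkg1, the catalytic subunit of phosphorylase kinase. It left out 66 bases in 11 of 157 and 11 of 178 reads. Of 46 mitochondrial genes, 26 had 54 members, 15 in both, with a median of 0.207%, and Idh3b had the most reads. Of 35 splicing factors, 11 had 20 members, 5 in both, with a median of 1.86%. There, Rbfox1, a regulator of muscle exons, left out 93 bases in 4 of 52 and 2 of 23 reads.

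The genes with most members were Myh4 with 23, Atp2a1 with 21, Phkb with 16, Trdn with 15 and Ttn with 12. Myh4 encodes the main fast myosin, and its members had shares from 0.00175% to 0.0108%, with 1 of 23 in both libraries and 18 of 21 coding skips in frame. Myosin heavy chain genes are close in sequence, and how reads were divided among them was not checked. Atp2a1 had 12 of 21 in both, at shares up to 0.0246%. Phkb, the regulatory subunit of phosphorylase kinase, had 3 of 16 in both at up to 0.895%. For Ttn, all 12 members lay in the coding part and all 12 kept the frame, with 3 in both. For Myh4 and Ttn, too, annotated exons with a length that is a multiple of 3 were not counted.

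Apart from the Neb junction past 8 merged exons, held by 24 of 181 and 25 of 230 spanning reads, the longest skips were rare or in genes with few reads. Ckm, muscle creatine kinase, had a junction past 6 exons of its leading model in 2 of 64356 and 3 of 51289 spanning reads. Exons of the other junctions named here were counted on the merged exons of all annotated transcripts, so that the bases can exceed those of any 1 transcript. Tnc, an extracellular matrix protein, had one past 6 exons of 273 bases each (5 on the transcript with both ends), in 2 of 2 and 2 of 3 reads, and Dnajb4, a chaperone, one past 5 exons (1 on that transcript) in 10 of 20 and 5 of 10. By merged bases, Tmem267 passed over 2872 in 4 of 4 and 3 of 3 reads, Lipo3 over 2476 in 9 of 14 and 3 of 8, and Azi2 over 2194 in 8 of 8 and 9 of 11. In Azi2, another 27 and 13 reads held an annotated junction from the same donor to a nearer acceptor. Reads that ended before the far acceptor did not count as spanning. Ptp4a3 passed over 1921 in 2 of 104 and 2 of 90 (a mean share of 2.07%, but 0.462% over reads that share an end of the intron), and Pde4dip, an anchor protein of the Golgi and centrosome, over 1668 in 18 of 587 and 18 of 905. On the annotated transcript with both ends the bases passed over were 899 for Ptp4a3, 662 for Lipo3 and 132 for Pde4dip, and no annotated transcript holds both ends for Tmem267 or Azi2.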

How the data were processed

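Each library has 1 deposited table of unnormalized read counts by transcript model, per the file headers, which lists models with at least 1 read. The deposited annotations give the exons of each model on mm10, and the models and classes carry TALON names. No aligner, filter or version is given in the sources used here. All 141862 annotated models matched GENCODE M21, from which coding parts and spliced sequences were taken.

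Introns were read from the exons of each model and matched between libraries by position. CPM was taken over reads of annotated mouse genes. Exons skipped were counted on the Known model with most reads, or on the merged exons of all annotated transcripts for 645 members, 338 of them in genes with no such model. The longest skips were ranked by this count. Other bases skipped, position and frame were taken on an annotated transcript with both ends, first one whose coding part held both, then the one with fewest bases between them. Shares needed 20 spanning reads in each library. Wilson 95% intervals and Fisher's exact test, adjusted by Benjamini-Hochberg over all introns, cover counting error only, with 1 library per side. Fisher's exact test was also run on simulated counts drawn with counting error only. Those counts hold no further variation between libraries, so they cannot show how the test fares under it. Alternatives used TMM sizes from edgeR 4.0.16 and size factors from DESeq2 1.42.0 in R 4.3.3. Python 3.11.15, numpy 2.4.6, pandas 2.3.3 and scipy 1.17.1 were used. The genome sequence was not used, so intron bases were not examined.

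The members, gene lists and tests were chosen with earlier results of these data known. Named members were the 10 with the highest lower CPM, the 10 with the highest mean share, the 5 with the smallest p in each direction, the 5 with most exons and the 5 with most bases skipped among those with 2 reads in each library, the 5 with most reads among those that skip no exon, the 2 with most reads in each list, and the 5 genes with most members; some items are not reported here.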

Additional observations from a re-analysis of the deposited data

How the results depend on the processing

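No paired analysis was possible because the series has 1 group. Leaving out 1 library, the number of junctions was 2576 to 2760, the percent that skip 1 exon 61.6 to 62.0, the percent in frame 54.4 to 54.7, the percent of reads 0.846 to 0.905 and the median share 0.528 to 0.658; shared junctions and the comparison of libraries need both. With at least 2 reads there were 1448 junctions, 62.4% skipped 1 exon and 57.6% kept the frame. With at least 5 reads there were 425, with 413 in both libraries, 59.1% and 62.8%. On merged exons of any annotated transcript, 54.4% skipped 1 exon and 47.6% kept the frame. In settings chosen after seeing the data, 76.8% skipped 1 exon on the transcript with both ends, 52.8% kept the frame on the best read Known model, and 0.671% of reads remained without Tnni2. Models of every class gave 1.06% of reads. The median share was 1.28% with 10 spanning reads and 0.476% with 50. The calls between libraries were 2 with 10 spanning reads, 3 with 50, 1 with reads that share an end and 1 with Known, NIC and NNC models only. The share of all introns called was not counted in these settings. An exact binomial test of junction reads gave 19 with TMM sizes and 17 with DESeq2 size factors, where 22.8% and 21.3% of all introns were called; this test takes in differences in the level of the gene. The cause of the other changes was not tested. With Known, NIC and NNC models only, 2 differences between libraries changed sign, to -0.416 percentage points for Ttn and -1.88 for the Neb junction at chr2:52150630, each with an adjusted p of 1. By junction reads 13 changed sign against the difference in shares, none called by share with 20 spanning reads. As replicate 1 minus replicate 2 in reads per 1000000 with TMM sizes, and in reads divided by DESeq2 size factors, they were -110 and -107 (Ttn), -100.1 and -101 (Tnni1), -69.4 and -67.7 (Trdn) and -32.1 and -32.1 (Tbc1d4), which were called, and, not called, -22.4 and -20.1, -6.18 and -5.48, and -2.13 and -2.01 (Neb), -10.2 and -8.40 (Ksr1), -3.83 and -3.29 (Pde4dip), -2.34 and -2.01 (Phkg1), 13.6 and 17.7 (Sept7), 1.98 and 3.65 (Ddi2) and 1.29 and 1.46 (Rbfox1). The shares of 34 named members stayed within the difference of the libraries for 25 of 33 with reads that share an end and 29 of 32 with Known, NIC and NNC models.
Most members had 1 read, so that a junction in 1 library only was not shown to be absent from the other.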
